A study of Mus musculus with 13 samples.

Results

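The genes described here are those of the cytoplasmic ribosomal proteins. They were chosen by name: every counted gene whose protein-coding symbol in GENCODE M21 (GRCm38) has the form Rpl or Rps followed by a number or letter of a ribosomal protein, with the Rps6k kinases left out. This gave 84 of 54532 genes, of which 52 encode proteins of the large (60S) subunit and 32 of the small (40S) subunit. Of the 84, 7 are named as paralogs of another member (*Rpl3l*, *Rpl7l1*, *Rpl10l*, *Rpl22l1*, *Rpl36al*, *Rpl39l* and *Rps27l*).

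RNA of Yumm1.7 cells, a mouse melanoma cell line, was sequenced in 13 libraries, 1 for each condition. Cells labelled WT received DMSO, 10 μM of the ADAR1 editing inhibitor ADAR1i-124 for 12 h, 1 μM of the DNA methyltransferase inhibitor 5-Aza-CdR for 72 h, or, per the study's text, 5-Aza-CdR and then ADAR1i-124 at these doses and times. RNA was sequenced after depletion of ribosomal RNA, either as total RNA or after precipitation with J2, which binds double-stranded RNA, with Z22, which binds Z-form RNA, or with an IgG control. What the cells of the single IgG library had received is not given in the sources used here. The total RNA library of the combination, in which the members took 0.0722% of counts, was left out, so 12 libraries were used.

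With 1 library per condition, differences between single libraries have no replicate check and were not tested. The only test, given with the precipitates, takes the treatments as pairs. Values are CPM, a library's counts of a gene scaled to a fixed number of counted reads, and a change or ratio is the difference of log2(CPM + 0.5) between 2 libraries. Brackets after a single gene's value give its exact 95% interval, which covers counting error only. Brackets after a median give the nonparametric 95% binomial interval over the members, which shows how the members vary among themselves and not how a library would repeat. A gene entered a comparison when its mean over both libraries was at least 1 CPM.

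The 12 libraries held 8167960 to 34571822 counts. *Gm42418*, a gene that overlaps ribosomal RNA, took 0.0299% to 0.334% of the total RNA libraries and 10.6% to 34.9% of the precipitated ones, with the highest share in the Z22 library of DMSO-treated cells. That library stands apart: the median gene had 1.18 log2 units less of it than of total RNA, so its values are given beside those of the other Z22 libraries throughout. Of the 7 melanocyte markers, *Mitf* was at 20.3 to 33.1 CPM in total RNA and the other 6, *Sox10* and *Mlana* among them, were at or below 0.434 CPM. Among markers of other cell types, the endothelial *Cdh5* was at 3.70 CPM with DMSO, 17.8 CPM with ADAR1i-124 and 81.1 CPM with 5-Aza-CdR, and the other 7 stayed at or below 1.59 CPM. The part of these in the values of the members was not tested.

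Ribosomal proteins are made in near-equal numbers, because each ribosome takes a single copy of nearly every one of them. The exceptions are the acidic stalk proteins P1 and P2 (*Rplp1*, *Rplp2*), which bind in pairs to P0 (*Rplp0*) and recruit translation factors. Their mRNAs are short, abundant and stable, and most begin with a C followed by a run of pyrimidines, the terminal oligopyrimidine (TOP) tract, through which LARP1 and mTOR control their translation together. Free RPL5 and RPL11, bound to 5S ribosomal RNA, hold MDM2 in check when ribosome assembly fails.

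The start sites of the members bear on that shared control. In the RefSeq start-site table (GRCm38.p6), 64 of the 84 members had 1 entry or more, 76 entries in all. The annotated start base was a C followed by at least 4 bases that are C or T, read on the gene's own strand, in 13 of the 76 entries (17.1%) and in 823 of all 32851 entries (2.51%). When the C could lie up to 5 bases to either side of the start, these shares were 40.8% and 18.3%. Of the members whose start carries the tract, 5 are shown with 15 bases before the start and 15 from it, with the tract in capitals. They come from a search of part of the members named in this text, so others named here may carry it too. *Rps27* and *Rplp2* are shown because they moved in opposite directions in total RNA.
Rps27 (chr3:90213634-90213663, minus strand): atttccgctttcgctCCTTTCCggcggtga
Rplp2 (chr7:141447636-141447665, plus strand): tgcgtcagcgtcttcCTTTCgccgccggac
Rps6 (chr4:86857353-86857382, minus strand): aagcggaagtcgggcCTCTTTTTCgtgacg
Rps21 (chr2:180257364-180257393, plus strand): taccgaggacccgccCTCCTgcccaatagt
Rps15a (chr7:118116133-118116162, minus strand): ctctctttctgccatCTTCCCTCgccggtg

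The members were among the most abundant mRNAs of the cells. In total RNA of DMSO-treated cells 81 of 84 members were at 1 CPM or more, and 3.47% of all genes at 1 CPM or more exceeded their median of 353 CPM. Together they took 3.30% of counts [3.29 to 3.31], with 1.89% in 60S and 1.42% in 40S genes. *Rpl4*, a core 60S protein, had the highest level (1506 CPM), followed by *Rpsa*, the 40S protein also known as a laminin receptor (1158 CPM), and *Rpl3* (1079 CPM).

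Per kilobase of the chosen transcript, *Rpl41* led with 1043 CPM per kb in DMSO, with *Rpl4* (979) and *Rps15* (957). The lowest members above 10 CPM on this scale were *Rpl7l1* (45.7 CPM per kb), *Rplp2* (58.5), *Rpl36* (58.9) and *Rps15a* (60.2). The *Rps15a* transcript used has 4728 bases of 3′ UTR, which lowers its value on this scale. *Rpl41* encodes the shortest member, and its whole coding sequence, on chromosome 10, is 78 bases including the stop codon.
Rpl41: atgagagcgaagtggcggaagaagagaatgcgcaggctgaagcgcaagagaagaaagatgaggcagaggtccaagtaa

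The share of counts taken by the members was lower in both treated total RNA libraries. It was 2.88% [2.87 to 2.89] with ADAR1i-124 and 2.11% [2.11 to 2.12] with 5-Aza-CdR, against 3.30% with DMSO. Among the J2 libraries it was 4.25% (DMSO), 4.39% (ADAR1i-124), 3.53% (5-Aza-CdR) and 2.74% (combination). Among those of Z22 it was 2.15%, 3.86%, 3.18% and 2.91% in the same order, and 3.30%, 4.52%, 3.55% and 3.46% of counts other than *Gm42418*. The IgG library had the highest share, 5.62%. A share also falls when other RNA rises. In these bulk RNA shares, less of these mRNAs per cell, fewer cells with much of them and more of other RNA cannot be told apart.

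**Figure D1:**
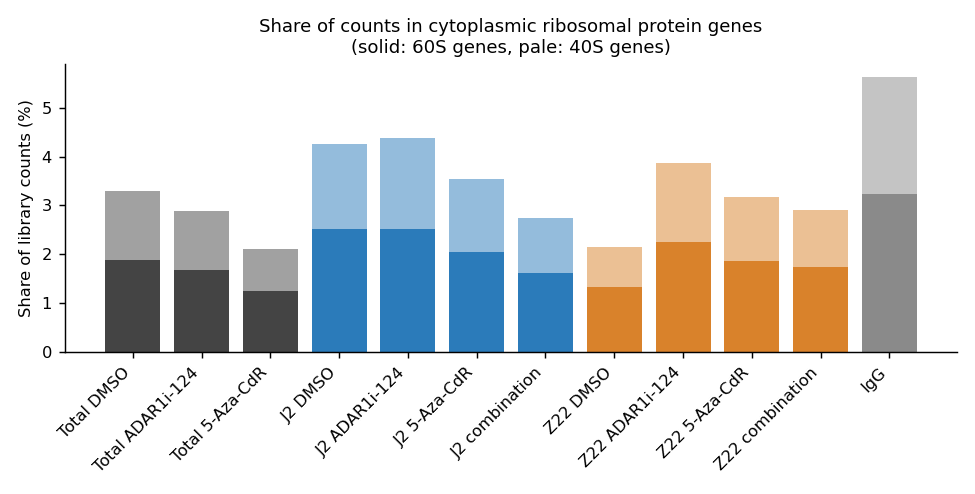
Share of each library's counts (%, linear axis from 0) in the 84 genes, solid for 60S and pale for 40S genes, with 1 bar per library. The total RNA bars go from 3.30% (DMSO) to 2.11% (5-Aza-CdR), and IgG is the tallest at 5.62%.

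The first comparison asks how total RNA of cells with inhibited editing differed from the DMSO control. With ADAR1i-124 most ribosomal protein mRNAs were lower, and a small group was much higher. Of the 81 members that passed the filter, 56 were below and 25 above their DMSO level, with a median of -0.34 [-0.65 to -0.20] against -0.09 for all 13693 genes. The median was -0.57 over the 32 genes of the 40S and -0.31 over 49 genes of the 60S. At least 2-fold lower were 9 members (11.1%), against 8.7% of all genes, and at least 2-fold higher were 4 (4.94%), against 7.71% of all genes. Both shares are near those of all genes at this line. At 1.5-fold 35 members (43.2%) were lower, against 21% of all genes, and 12 (14.8%) higher, against 15.5%. The members ranged from -1.57 to 2.19.

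The 4 members highest with ADAR1i-124 were *Rpl36*, *Rplp2*, *Rpl29* and *Rplp1*, all of the 60S subunit. *Rpl36* was at 22.6 CPM with DMSO and 104.6 CPM with ADAR1i-124, a log2 change of 2.19 [2.05 to 2.37]. *Rplp2*, the stalk protein P2, was at 56.4 and 227 CPM (2.0 [1.91 to 2.11]). *Rplp1*, its partner P1, was at 253 and 718 CPM (1.50 [1.45 to 1.55]). *Rpl29*, a 60S protein also known as a heparin-binding protein, was at 152 and 477 CPM (1.64 [1.58 to 1.71]). *Rplp0*, which anchors P1 and P2 to the ribosome, had 926 and 1277 CPM, a smaller difference of 0.46 [0.43 to 0.49].

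Among the lowest with ADAR1i-124 were *Rpl22l1*, *Rps14* and *Rps27*. *Rpl22l1*, the paralog of *Rpl22*, was at 67.9 CPM with DMSO and 22.6 CPM with ADAR1i-124 (-1.57 [-1.76 to -1.42]). *Rps14*, the 40S gene known for its loss in the 5q deletion syndrome, was at 512 and 175 CPM (-1.54 [-1.61 to -1.49]). *Rps27*, also called metallopanstimulin 1, was at 295 and 120.1 CPM (-1.29 [-1.37 to -1.23]). *Rps27a*, which is made as a fusion with ubiquitin, was at 415 and 173 CPM. Among the 3 total RNA libraries these 4 genes were highest, and *Rpl36*, *Rplp2*, *Rpl29* and *Rplp1* lowest, in that of DMSO.

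5-Aza-CdR was compared with the same DMSO library, so both comparisons share that control and their values are not independent. Here the members were lower nearly throughout. Of 80 that passed the filter, 73 were below and 7 above DMSO, with a median of -0.69 [-0.81 to -0.62], while the median of all 14391 genes was 0.06. At least 2-fold lower were 14 members (17.5%) against 8.96% of all genes, and 3 (3.75%) were at least 2-fold higher against 17.0% of all genes. The 40S median (-0.70) and the 60S median (-0.69) were close. The middle 50% of members lay between -0.89 and -0.39, a narrower band than with ADAR1i-124 (-0.81 to 0.27).

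Of the members that passed the filter, the 3 past 2-fold higher with 5-Aza-CdR were *Rpl36*, at 49.3 CPM (1.11 [0.97 to 1.29]), *Rplp1*, at 545 CPM (1.10 [1.06 to 1.15]), and *Rplp2*, at 121 CPM (1.09 [1.0 to 1.20]). *Rpl29* followed with 214 CPM (0.49 [0.43 to 0.56]). *Rplp0* was slightly lower, at 792 CPM (-0.23 [-0.25 to -0.20]), so P1 and P2 differed from P0 in direction here. Among the lowest were *Rpl22l1*, at 16.3 CPM (-2.03 [-2.21 to -1.92]), *Rps27*, at 119.8 CPM (-1.30 [-1.36 to -1.24]), and *Rps27a*, at 179.9 CPM (-1.20 [-1.25 to -1.16]). Each of these genes has the same DMSO value under both drugs.

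**Figure D2:**
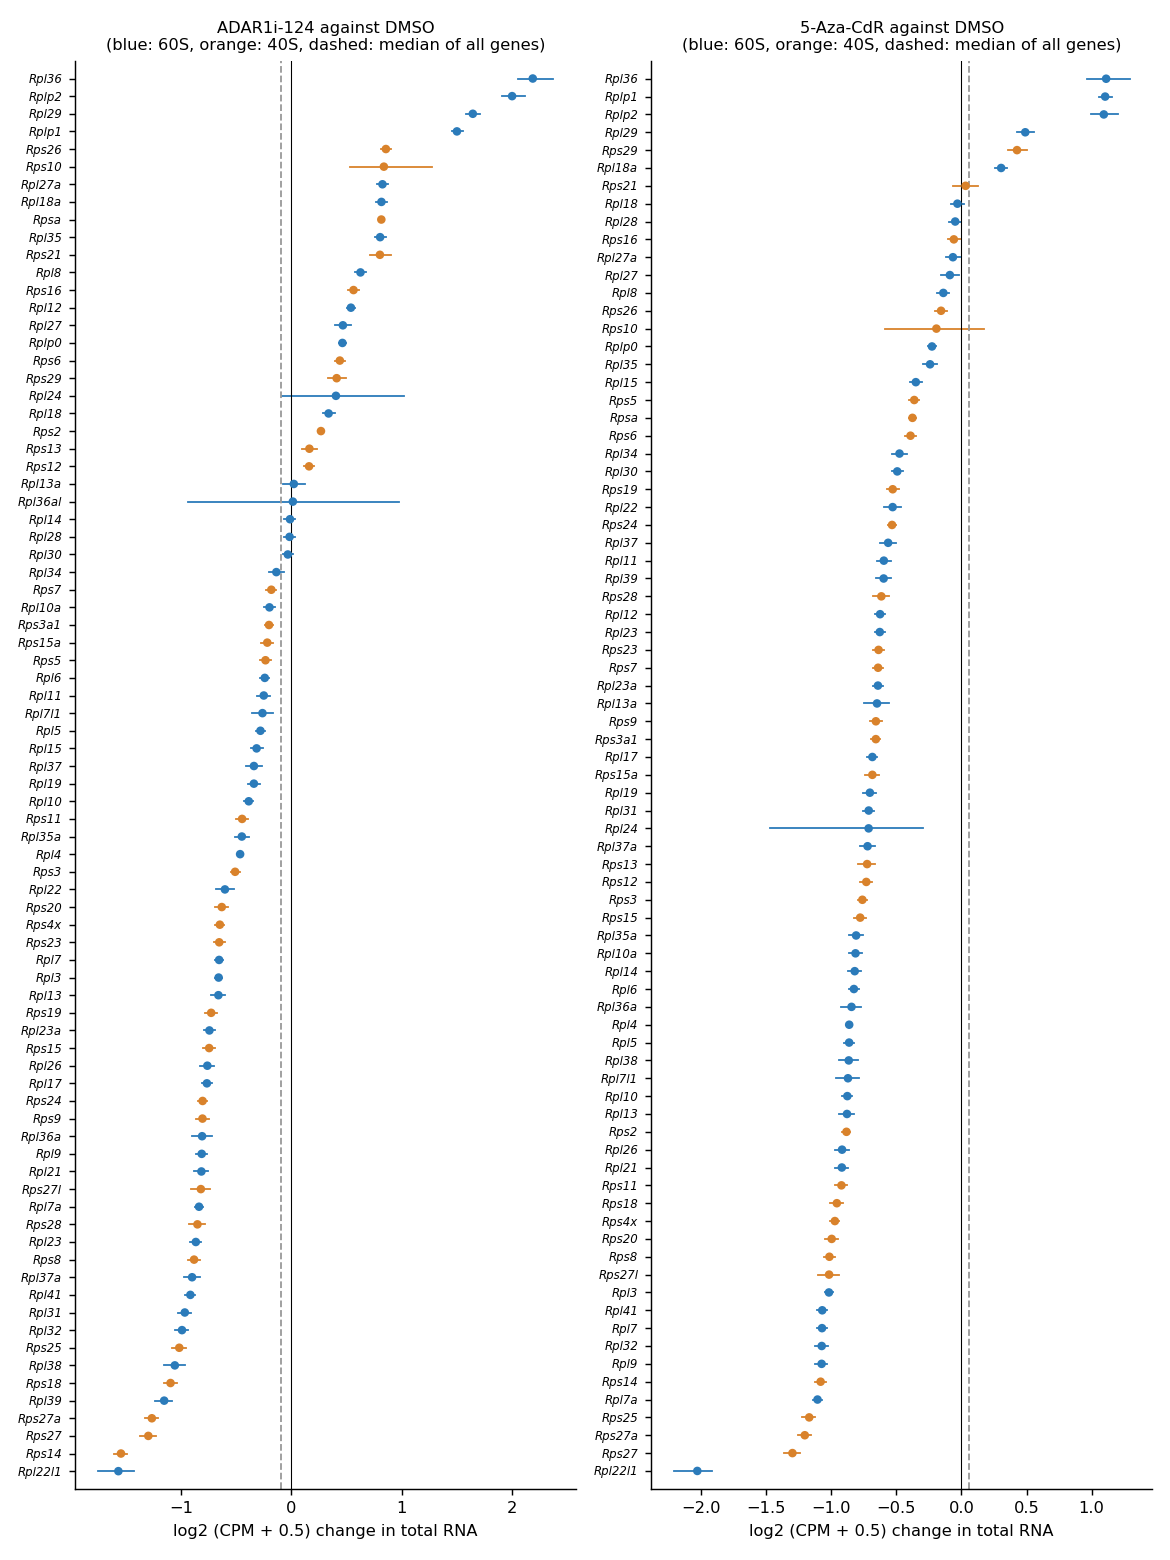
Change of each member in total RNA, as log2(CPM + 0.5) with ADAR1i-124 (left, 80 genes) and 5-Aza-CdR (right, 79 genes) against DMSO, sorted by value, with 1 member not shown, with 60S genes blue, 40S genes orange, lines for the 95% counting interval and a dashed line at the median of all genes. *Rpl36*, *Rplp1*, *Rplp2* and *Rpl29* stand at the top of both panels and *Rpl22l1* at the bottom of both.

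Between these ends lay the members best known outside the ribosome. *Rpl5* and *Rpl11*, of the 5S particle, were at 659 and 294 CPM with DMSO, 543 and 247 CPM with ADAR1i-124, and 362 and 194 CPM with 5-Aza-CdR. Their changes were -0.28 and -0.25 with ADAR1i-124 and -0.86 and -0.60 with 5-Aza-CdR, near the medians of the members. *Rps6*, the S6 kinase substrate, was at 448, 608 and 342 CPM in the same order (0.44 and -0.39). *Rpsa* was at 1158, 2038 and 892 CPM (0.82 and -0.38), and with ADAR1i-124 it was the most abundant member. *Rpl41* was at 607, 322 and 289 CPM (-0.91 and -1.07).

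Small nucleolar RNAs, which guide the modification of ribosomal RNA, are cut from introns of many of these genes. A snoRNA gene lay inside 30 members. The median change of the hosts was -0.36 with ADAR1i-124 and -0.73 with 5-Aza-CdR, against -0.34 and -0.67 for members without one, differences smaller than the interval of either median over all members.

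The changes in total RNA moved with the base composition of the coding sequence. Coding GC content ran from 39.6% (*Rpl22l1*) to 61.3% (*Rpl36*), with a median of 52.3%, and *Rplp1* (57.7%), *Rpl29* (57.1%) and *Rplp2* (56.3%) were also high. Spearman's rank correlation between coding GC and the change in total RNA was 0.45 with ADAR1i-124 (81 members) and 0.48 with 5-Aza-CdR (80 members). Without the members of lowest and highest GC, a choice made after seeing the data, it was 0.41 and 0.43. Over all protein-coding genes that passed the filter it was 0.30 (11211 genes) and 0.33 (11646 genes), so the relation was also seen outside the ribosomal proteins. All points in a panel share the same pair of libraries, and both panels share the DMSO library. Among the lowest members *Rps14* (56.4%) was not poor in GC. The part of base composition in these changes was not tested.

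The first 120 coding bases of the highest pair and of the lowest member with ADAR1i-124 show the difference, with G and C in capitals. These bases hold 61.7% GC in *Rpl36*, 58.3% in *Rplp2* and 44.2% in *Rpl22l1*.
Rpl36 (chr17:56613416-56614243, plus strand): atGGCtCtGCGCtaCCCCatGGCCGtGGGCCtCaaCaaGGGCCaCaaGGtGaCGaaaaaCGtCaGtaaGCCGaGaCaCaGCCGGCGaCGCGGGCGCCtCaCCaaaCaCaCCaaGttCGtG
Rplp2 (chr7:141447370-141451585, plus strand): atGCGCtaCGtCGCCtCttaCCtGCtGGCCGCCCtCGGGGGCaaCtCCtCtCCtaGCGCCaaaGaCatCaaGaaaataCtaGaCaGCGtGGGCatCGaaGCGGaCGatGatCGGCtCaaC
Rpl22l1 (chr3:28805436-28807424, plus strand): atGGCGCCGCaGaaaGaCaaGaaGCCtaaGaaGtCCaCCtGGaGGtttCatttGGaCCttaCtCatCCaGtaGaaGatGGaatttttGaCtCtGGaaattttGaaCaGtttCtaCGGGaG

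**Figure D3:**
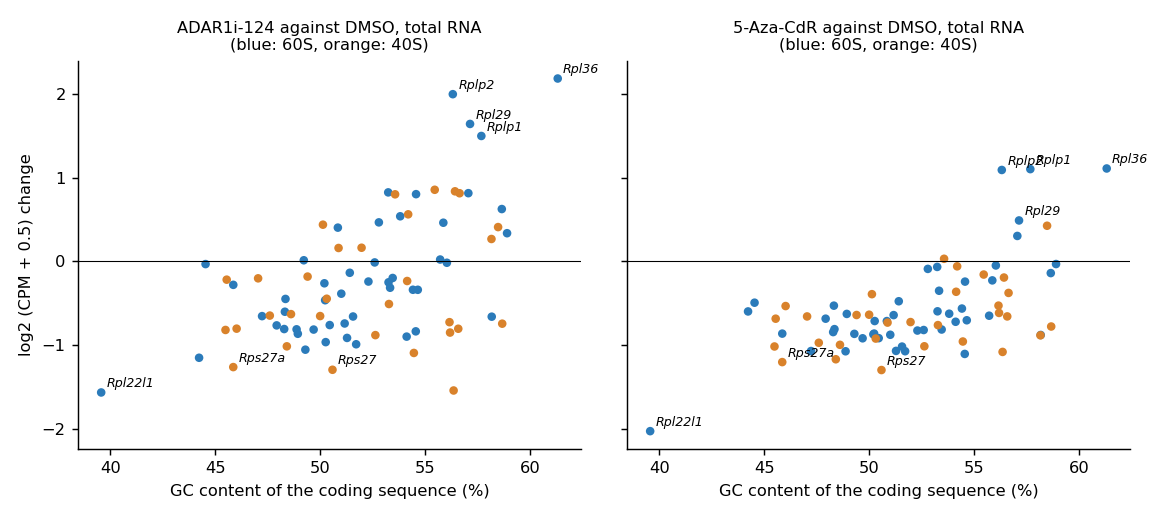
Change of each member in total RNA (log2(CPM + 0.5), y axis) against the GC content of its coding sequence (%, x axis), with 1 member not shown, 60S genes blue and 40S genes orange. The rank correlation over all members was 0.45 with ADAR1i-124 (left) and 0.48 with 5-Aza-CdR (right), with *Rpl36* at the upper and *Rpl22l1* at the lower end of both.

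The paralogs fell into expressed and near-silent genes. *Rpl39l*, a gene known from testis, was detected almost only in libraries labelled with 5-Aza-CdR. It had 0 counts in total RNA of DMSO and ADAR1i-124, which allows up to 0.176 and 0.170 CPM at 3 counts, and 61 counts (1.76 CPM) with 5-Aza-CdR, at least 10-fold higher than with DMSO. In J2 it had 0 counts with DMSO and ADAR1i-124, 94 with 5-Aza-CdR (7.07 CPM) and 51 with the combination (4.33 CPM). The Z22 counts were 0 (DMSO), 1 (ADAR1i-124), 23 (5-Aza-CdR, 2.82 CPM) and 27 (combination, 2.95 CPM). Of the 12 libraries used, the 5 labelled with 5-Aza-CdR held 23 or more counts of *Rpl39l*, the 6 labelled with DMSO or ADAR1i-124 alone held 0 or 1, and IgG, of unstated treatment, held 0. *Rpl10l*, an autosomal gene without introns that is also known from testis, had 5, 2 and 2 counts in J2 with 5-Aza-CdR, J2 with the combination and Z22 with 5-Aza-CdR, and 0 in the other 9 libraries, which is at the limit of detection. *Rpl3l*, a muscle gene, had 0 to 2 counts in every library.

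*Rpl39l* is shown beside *Rpl39*, whose reads it could share. Their coding sequences of 156 bases differ at 23 positions and are 85.3% identical. The bases that differ are in capitals.
Rpl39 (chrX:37082520-37085402, minus strand): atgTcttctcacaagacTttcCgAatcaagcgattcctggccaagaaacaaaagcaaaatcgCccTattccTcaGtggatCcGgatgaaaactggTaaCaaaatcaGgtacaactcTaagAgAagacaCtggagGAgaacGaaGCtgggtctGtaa
Rpl39l (chr16:10170226-10174911, plus strand): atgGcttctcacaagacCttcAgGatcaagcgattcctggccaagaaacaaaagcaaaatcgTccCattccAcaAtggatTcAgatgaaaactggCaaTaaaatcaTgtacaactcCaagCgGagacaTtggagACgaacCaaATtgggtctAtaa
The longest stretch they share is 38 bases. In total RNA *Rpl39* itself, which lines the exit tunnel, was lower with both drugs. It went from 260.5 CPM with DMSO to 117 CPM with ADAR1i-124 (-1.15) and 172 CPM with 5-Aza-CdR (-0.60). In J2 it was at 135 CPM (DMSO), 85.4 CPM (ADAR1i-124), 181 CPM (5-Aza-CdR) and 76.7 CPM (combination). The Z22 values were 15.8, 112, 104 and 81.8 CPM in the same order. Whether reads were shared between both genes was not tested.

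Because 5-Aza-CdR acts on CpG methylation, the 250 bases before the RefSeq start of *Rpl39l* are shown with each CpG in capitals. They hold 12 CpG sites, above the median of 6 over all 32851 entries and below the median of 18 over the 76 entries of the members. Methylation was not measured in these libraries.
Rpl39l (chr16:10169978-10170227, plus strand): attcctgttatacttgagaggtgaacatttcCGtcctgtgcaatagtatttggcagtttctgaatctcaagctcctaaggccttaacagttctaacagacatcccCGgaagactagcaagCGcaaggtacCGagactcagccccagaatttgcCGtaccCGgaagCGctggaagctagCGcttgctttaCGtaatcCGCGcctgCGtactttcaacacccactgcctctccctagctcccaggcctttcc

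Of the expressed paralogs, *Rpl22l1* moved more than its parent. *Rpl22* was at 178 CPM with DMSO, 117 with ADAR1i-124 (-0.60 [-0.68 to -0.52]) and 123 with 5-Aza-CdR (-0.53 [-0.60 to -0.46]). These intervals do not meet those of *Rpl22l1*, but they cover counting error only, with 1 library per condition. Coding identity of this pair is 66.9%. Part of the *Rpl22l1* transcript (28.8%) overlaps *Gm33051* on the other strand. *Rps27l*, a p53 target, was at 161, 90.9 and 79.2 CPM (-0.82 and -1.02), smaller differences than those of *Rps27*. *Rpl7l1* was at 119, 99.3 and 64.9 CPM (-0.26 and -0.87), and *Rpl7* at 754, 479 and 359 CPM (-0.65 and -1.07). *Rpl36al*, at 0.318 to 1.19 CPM, was far below *Rpl36a*, at 90.5 to 163 CPM, in total RNA.

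A pair of core members had few counts. *Rpl24* was at 1.56 to 3.97 CPM and *Rps10* at 4.77 to 10.3 CPM in total RNA, while the median member was at 223 to 353 CPM. In both, as in *Rpl36al*, more than 50% of the transcript is shared on the same strand with another annotated gene (*Gm28037*, *RPS10-NUDT3* and *Gm49383*), which themselves had 0 to 2 counts. How reads of shared exons were assigned is not given in the sources used here, so the levels of these 3 genes are uncertain. *Rpl13a*, at 56.6 to 90.4 CPM in total RNA, also shares more than 50% of its transcript (59.3%), so its level is uncertain for the same reason. *Rpl19* shares 10.7%. Without these 5 genes the medians of both total RNA comparisons, -0.45 and -0.70, lay within the intervals given above. Processed copies of these genes can take reads as well: the 300 annotated pseudogenes named after ribosomal proteins held 1.53% to 2.05% of the number of reads the members held in total RNA, and 1.36% to 2.47% in precipitated RNA.

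The next comparisons set precipitated RNA against total RNA of the same treatment, to ask whether ribosomal protein mRNAs were held by J2 or Z22. Relative to total RNA the members were higher in J2 than the median gene with each treatment. The median ratio was 0.27 [0.12 to 0.53] with DMSO, 0.50 [0.21 to 0.82] with ADAR1i-124 and 0.64 [0.54 to 0.90] with 5-Aza-CdR, against -0.36, -0.30 and -0.37 for all genes. Both medians move with the scaling of libraries, as given in the last section. The distance between them, which depends little on that scaling, was 0.63, 0.80 and 1.0 in the same order. It depends on the filter on low genes, and with no filter it was 0.24, 0.43 and 0.64. At least 2-fold higher in J2 were 12 of 80 members with DMSO (15%, all genes 5.56%), 25 of 81 with ADAR1i-124 (30.9%, all genes 5.04%) and 25 of 81 with 5-Aza-CdR (30.9%, all genes 4.94%). At least 2-fold lower were 2, 1 and 0, against 17.3%, 14.7% and 18.9% of all genes. The higher counts depend on the scaling: TMM, DESeq2 and totals without the 20 most abundant genes gave 19, 23 and 26 with DMSO (all genes 8.81%, 10.3% and 12.5%), and the last 2 gave 46 and 45 with 5-Aza-CdR (all genes 9.96% and 9.97%).

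Z22 gave much the same picture except with DMSO. The median ratio to total RNA was 0.35 [0.07 to 0.65] with ADAR1i-124 and 0.49 [0.34 to 0.66] with 5-Aza-CdR, against -0.30 and -0.20 for all genes. At least 2-fold higher were 23 of 80 members (28.8%, all genes 4.68%) and 15 of 81 (18.5%, all genes 7.01%), and 1 was lower with each drug, against 11.8% and 14.2% of all genes. The 15 became 19, 26 and 26 with TMM, DESeq2 and totals without the 20 most abundant genes (all genes 7.74%, 9.84% and 10.6%). In the Z22 library of DMSO, which stands apart, the members' median was -0.99 [-1.28 to -0.69] and that of all genes -1.18, a distance of 0.19. With no filter on low genes this distance turned to -0.95, and those with ADAR1i-124 and 5-Aza-CdR, 0.65 and 0.69, became 0.26 and 0.50. With DMSO and the filter, 2 of 80 were at least 2-fold higher (2.5%, all genes 6.61%) and 40 lower (50%, all genes 54.6%), shares near those of all genes. The sign of this median depends on the scaling: with DESeq2 size factors it was 0.20, with 20 members at least 2-fold higher (24.7%, all genes 25.7%) and 14 lower (17.3%, all genes 24.6%).

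The treatments allow a paired test of precipitated against total RNA, with the treatment as a block, in edgeR's quasi-likelihood fit over all genes with Benjamini-Hochberg adjustment. Over the 3 treatments, none of 81 members passed an adjusted p of 0.05 for J2 to total RNA, and the smallest was 0.153, for *Rpl19*, *Rpl21* and *Rpl22*. Of all 14142 genes, 3 passed (0.0212%). At an unadjusted p of 0.05, 30 members were higher and none lower, against 2.63% and 17.8% of all genes. For Z22 to total RNA none of 80 passed (all genes 0.0285%), and 4 were higher and none lower at an unadjusted p of 0.05, against 1.28% and 10% of all genes. Z22 to J2 over 4 treatments called no gene among 13898, members included, and at an unadjusted p of 0.05, 1 member, *Rps23*, was lower and none higher, against 5.58% and 5.94% of all genes. These counts depend on single pairs. Without DMSO, 29 members passed the adjusted test as higher in J2 and none as lower (all genes 2.19% and 10.1%), and 1, *Rpl21*, as higher in Z22 (all genes 0.272%), with 1 residual degree of freedom. In Z22 to J2 no member passed without DMSO, where 413 genes were higher and 131 lower. Without ADAR1i-124 or 5-Aza-CdR, the 30 members higher in J2 at an unadjusted p of 0.05 became 13 or 15, and the 4 in Z22 became 0.

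The ratios to total RNA were higher in the IgG control than with either antibody. Against total RNA of DMSO, the median ratio in IgG was 0.79 [0.60 to 0.90], while all genes had -0.40. In all, 78 of 80 members were above 0, 25 (31.2%) were at least 2-fold higher against 3.01% of all genes, and none was 2-fold lower against 16.7% of all genes. The 25 became 47, 50 and 46 with TMM, DESeq2 and totals without the 20 most abundant genes (all genes 6.74%, 7.57% and 6.37%). Against total RNA of ADAR1i-124 and 5-Aza-CdR the IgG medians were 0.97 [0.76 to 1.36] and 1.35 [1.26 to 1.53]. At least 2-fold higher were 39 of 80 members (48.75%, 945 of all 13257 genes) and 63 of 80 (78.75%, 1286 of all 14072 genes). The cells behind IgG are of a treatment not stated, so these 3 comparisons use 1 numerator and differ only in the total RNA library.

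Set against IgG directly, the members' median was below 0 in all 8 J2 and Z22 libraries. The J2 to IgG median was -0.51 [-0.67 to -0.35] for DMSO, -0.44 [-0.57 to -0.38] for ADAR1i-124, -0.68 [-0.78 to -0.64] for 5-Aza-CdR and -1.12 [-1.24 to -0.95] for the combination, where all genes were between -0.01 and 0.13. At least 2-fold below IgG were 10 of 80, 3 of 80, 6 of 81 and 47 of 81 members, against 8.97%, 4.46%, 5.57% and 7.98% of all genes. For the first 3 treatments (12.5%, 3.75% and 7.41% of members) these shares are near the background at the 2-fold line, and that of the combination (58.0%) is not. At a line of 1.5-fold they are not: 42.5%, 35% and 66.7% of members were lower, against 21.9%, 12.7% and 14.7% of all genes. For 5-Aza-CdR the 2-fold share depends on the scaling too: with TMM factors 17 members (20.7%) were 2-fold lower against 7.41% of all genes, with DESeq2 size factors 13 (15.9%) against 6.77%, and with totals without the 20 most abundant genes 4 (4.88%) against 4.89%. With ADAR1i-124 TMM gave 7 members (8.75%) against 5.26%.

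The Z22 to IgG median was -1.79 [-2.06 to -1.41] with DMSO, -0.64 [-0.70 to -0.45] with ADAR1i-124, -0.90 [-1.04 to -0.78] with 5-Aza-CdR and -1.04 [-1.17 to -0.92] with the combination, against -0.83, -0.05, 0.18 and 0.01 for all genes. At least 2-fold lower were 63 of 80, 6 of 80, 33 of 81 and 42 of 81 members, against 45.4%, 1.85%, 5.13% and 10.7% of all genes. The 33 with 5-Aza-CdR became 62 with TMM and 54 with DESeq2 (all genes 12.1% and 10.2%), and the 63 with DMSO became 41 with DESeq2 (all genes 25.4%). Only *Rpl39l*, at 0 in IgG, was at least 2-fold above IgG in the 4 libraries of 5-Aza-CdR and the combination, and only *Rplp2* (1.19) in Z22 of DMSO.

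**Figure D4:**
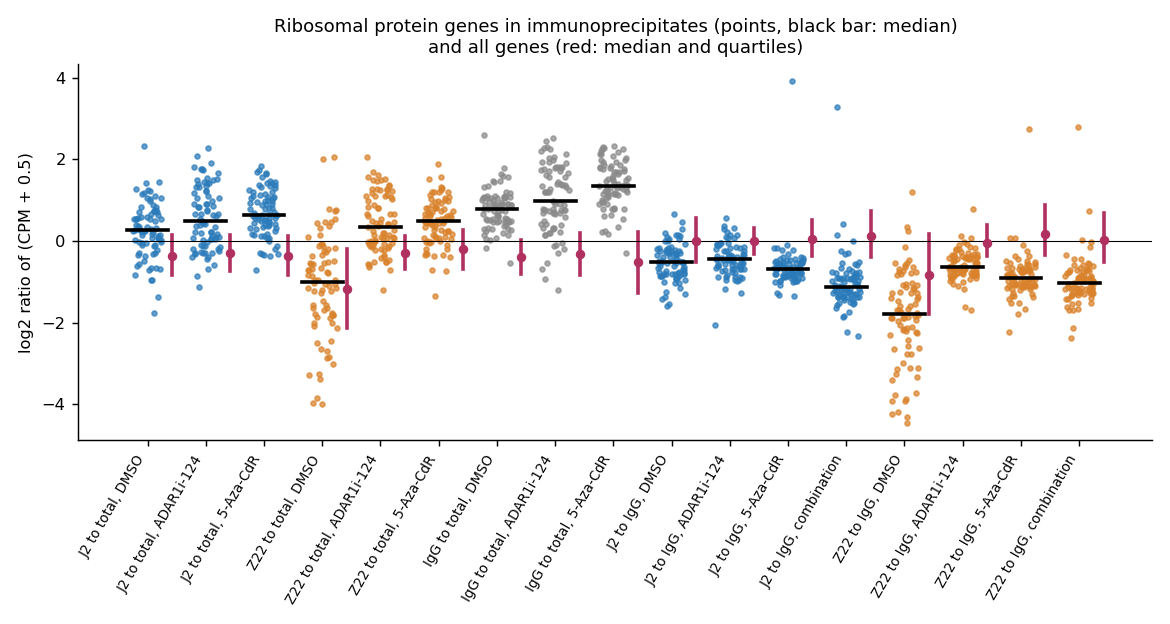
log2 ratios of (CPM + 0.5) of the members (1 point per gene, black bar at the median) for J2 (blue), Z22 (orange) and IgG (grey) against total RNA, and for J2 and Z22 against IgG, beside the median and quartiles of all genes (red). The black bars lie above the red points against total RNA and below them against IgG. The 4 lone high points on the right, at 2.73 to 3.92, are *Rpl39l*.

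The order of single members differed between the treatments. With DMSO the highest ratios in J2 were those of *Rpl36* (2.32 [2.18 to 2.51]), *Rplp1* (1.44 [1.38 to 1.49]), *Rpl21* (1.43 [1.39 to 1.48]) and *Rplp2* (1.27 [1.16 to 1.39]). With ADAR1i-124 the J2 ratios of *Rpl36* (-0.20), *Rplp1* (-0.11) and *Rplp2* (-1.13) were below 0. *Rpl21*, a 60S protein, stayed high in J2 with ADAR1i-124 (2.29) and 5-Aza-CdR (1.69). It was also high in IgG, against total RNA of the 3 treatments, at 1.32, 2.14 and 2.24.

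The levels in each library lie behind these ratios. *Rpl36* was at 22.6 CPM in total RNA of DMSO and at 47.9 to 139 CPM in each of the other 11 libraries, 114 CPM in J2 of DMSO and 95.1 CPM in Z22 of DMSO among them. *Rplp2* was at 56.4 CPM there, and only Z22 of 5-Aza-CdR (47.0 CPM) was lower among the other 11, which reached 227 CPM. *Rplp1* was at 253 CPM, and at 234 CPM in Z22 of DMSO and 429 to 790 CPM in the other 10. These 3 genes were low in total RNA of DMSO, the denominator of their drug to DMSO changes and of their precipitate to total RNA ratios with DMSO. *Rplp2* was also at its highest in total RNA of ADAR1i-124 (227 CPM) and Z22 of DMSO (226 CPM), which are numerators of such values. The part of each library in these values was not tested.

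In total RNA of DMSO *Rpl22l1* was high instead. It was at 67.9 CPM in total RNA of DMSO and 60 CPM in IgG, and at 3.90 to 26.5 CPM in the other 10 libraries. *Rps27* was at 295 CPM in total RNA of DMSO, at 30.1 CPM in Z22 of DMSO and at 119.8 to 555 CPM in the other 10.

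**Figure D5:**
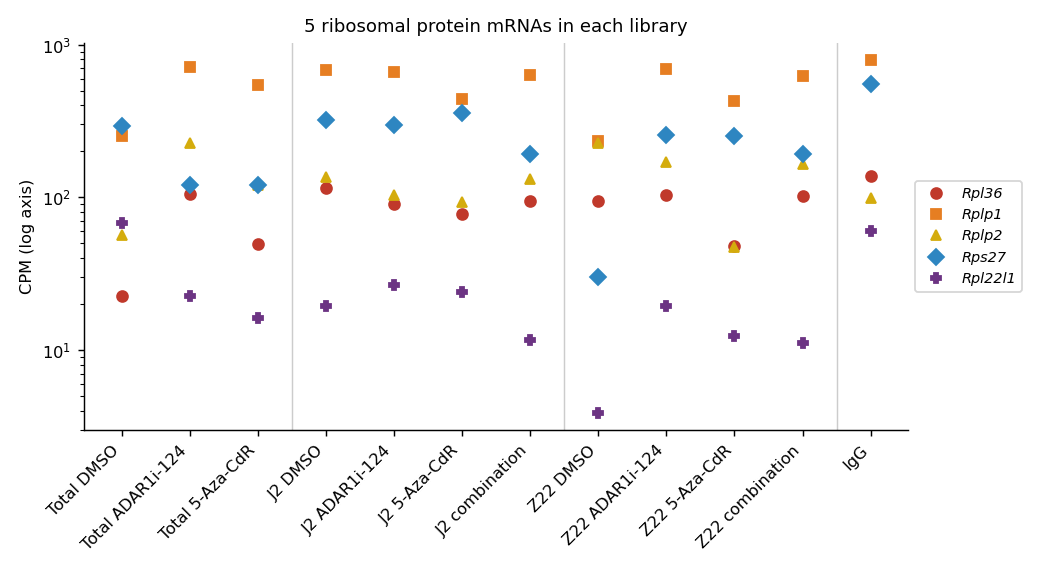
CPM (log axis) of 5 members in each of the 12 libraries, with grey lines between total RNA, J2, Z22 and IgG. *Rpl36* is lowest in total RNA of DMSO (22.6 CPM), and *Rpl22l1* is highest there and in IgG, at 67.9 and 60 CPM.

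The lowest Z22 ratios with DMSO were those of *Rpl39* (-4.00 [-4.30 to -3.80]), *Rpl22l1* (-3.96 [-4.66 to -3.63]), *Rps27l* (-3.85 [-4.23 to -3.62]) and *Rpl10* (-3.39 [-3.53 to -3.27]). *Rpl10*, which completes the 60S subunit, was at 639 CPM in total RNA and 60.5 CPM in Z22. *Rpl36* (2.05), *Rplp2* (2.0), *Rpl11* (0.79) and *Rpl26* (0.76) were highest. With ADAR1i-124 the Z22 ratios of the 4 lowest genes were -0.06 for *Rpl39*, -0.22 for *Rpl22l1*, 0.54 for *Rps27l* and -0.52 for *Rpl10*, against a median of 0.35 over the members. In J2 of DMSO *Rpl22l1* (-1.77), *Rpl39* (-0.95) and *Rpl10* (-0.84) were the lowest above 10 CPM.

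In IgG against total RNA of DMSO, *Rpl36* (2.59), *Rps21* (1.78), *Rplp1* (1.64) and *Rpl19* (1.60) were highest. *Rps21*, a small 40S protein, was at 80.2 CPM in total RNA and 277 CPM in IgG. *Rpl22l1* (-0.18), *Rpl10* (0.02), *Rps13* (0.05) and *Rps4x* (0.08), the X-linked S4 gene, were lowest above 10 CPM. Even these 4 were close to their level in total RNA.

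Transcript length and GC had correlations with some of these ratios, and the sign of that with GC differed between treatments. The members' transcripts are short, with a median of 775 bases over the 81 at 1 CPM or more in total RNA of DMSO, against 3007 bases over 11019 protein-coding genes. The rank correlation between transcript length and the IgG to total RNA ratio with DMSO was -0.29 over 80 members and -0.45 over 10968 protein-coding genes. For Z22 to total RNA with DMSO, the rank correlation with coding GC was 0.38 over the members and 0.52 over 11010 protein-coding genes, and for J2 with DMSO it was 0.17 and 0.25. With ADAR1i-124 the correlation with GC was -0.25 over the members and -0.22 over protein-coding genes for J2, -0.22 and 0.12 for Z22, and -0.32 and -0.18 for IgG, where it had been 0.30 and 0.12 with DMSO. With 5-Aza-CdR it was -0.29 and -0.20 for J2 and -0.20 and -0.01 for Z22. Length and the ratio with DMSO had a correlation of 0.04 over the members and -0.09 over protein-coding genes for J2, and of 0.18 and -0.01 for Z22. For J2 it was -0.12 and -0.21 with ADAR1i-124 and -0.11 and -0.30 with 5-Aza-CdR, and for Z22 -0.19 and -0.12, and -0.06 and -0.07. In the 8 ratios to IgG length had a positive correlation, 0.26 to 0.37 over the members and 0.17 to 0.39 over protein-coding genes. Before precipitation, per the study's methods, RNA was treated with an RNase specific for single strands, and no such treatment is stated for total RNA. The part of length, composition and this digestion in the ratios was not tested.

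Other genes of the same machinery were read for comparison. *Fau*, a 40S protein made as a fusion with a ubiquitin-like protein, was at 159 CPM with DMSO, 129.8 CPM with ADAR1i-124 (-0.29) and 128 CPM with 5-Aza-CdR (-0.31). *Rack1*, the 40S scaffold protein, was at 890 CPM with DMSO, 766 CPM with ADAR1i-124 and 514 CPM with 5-Aza-CdR (-0.22 and -0.79). Of 23 other TOP mRNAs, none was past 2-fold with ADAR1i-124 (median 0.15), where 7.71% of all genes were higher and 8.7% lower. With 5-Aza-CdR 6 were at least 2-fold lower and none higher (median -0.49), where 8.96% of all genes were lower and 17.0% higher. The same shares of all genes apply to the lists that follow. *Pabpc1*, the poly(A)-binding protein, was at 1575 CPM with DMSO and 2947 CPM with ADAR1i-124 (0.90), and *Eef1b2*, an elongation factor subunit, at 409.9 and 222 CPM (-0.88). With 5-Aza-CdR *Nap1l1* (-1.57), *Snhg1* (-1.55), *Npm1* (-1.44) and *Hnrnpa1* (-1.33) were lowest.

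Both comparisons of the ribosome assembly factors use the same control. Of 62, 2 were at least 2-fold higher and none lower with ADAR1i-124 (median 0.18), while 29 were at least 2-fold lower and none higher with 5-Aza-CdR (median -0.85). The lowest there were *Dkc1*, the pseudouridine synthase, from 130.5 to 29.7 CPM (-2.12), *Wdr12* (-1.89), *Utp20* (-1.86) and *Ncl*, nucleolin, from 975 to 287 CPM (-1.76). With ADAR1i-124 *Taf1c*, of the polymerase I machinery, had 1.68 and *Rrp12* 1.23. Of 77 mitochondrial ribosomal proteins, 1 was higher and 1 lower with ADAR1i-124 (median -0.13), *Mrps12* (2.32) and *Mrps6* (-1.04). With 5-Aza-CdR 10 were lower and 1 higher (median -0.50), a share of lower genes not far from the 8.96% of all genes. With 5-Aza-CdR, these 3 lists and the members therefore had medians below that of all genes.

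The ratios to total RNA of these lists with 5-Aza-CdR were above those of all genes as well. The assembly factors had a median of 0.62 in J2, 1.06 in Z22 and 0.97 in IgG, where the members had 0.64, 0.49 and 1.35 and all genes -0.37, -0.20 and -0.52. At least 2-fold higher were 17 of the 62 in J2 (all genes 4.94%), 33 in Z22 (all genes 7.01%) and 30 in IgG (1286 of all 14072 genes). The mitochondrial ribosomal proteins had 0.38, 0.15 and 0.86, and the TOP mRNAs 0.26, 0.37 and 0.71. With DMSO the J2 medians were -0.35 for the assembly factors, -0.26 for the mitochondrial ribosomal proteins and -0.45 for the TOP mRNAs, beside 0.27 for the members and -0.36 for all genes. In the same order, Z22 with DMSO had -0.18, -1.42 and -0.81, beside -0.99 and -1.18. IgG to total RNA of DMSO had 0.16, 0.29 and 0.11, beside 0.79 and -0.40. J2 with ADAR1i-124 had 0.22, 0.21 and -0.09, beside 0.50 and -0.30.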

How the data were processed

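Reads were mapped by the authors with STAR in snakePipes to GRCm38 (mm10), and the values used are the raw counts per gene that the authors deposited, in 1 table of 54532 genes. The counting tool and its strand setting are not given in the sources used here. Identifiers were matched without version to GENCODE M21, which named 54495 of them. Groups came from the sample labels. Counts were divided by each library's total in the table, log2(CPM + 0.5) was compared between 2 libraries, and genes averaging under 1 CPM over both were left out. A single library stood for each condition, so differences between single libraries were described and not tested. Precipitated and total RNA, and Z22 and J2, were also compared over treatments with edgeR's quasi-likelihood test, with the treatment as a block, a test added after seeing the data. Intervals are exact binomial ones at 95%, and the limit for a count of 0 was set at 3 counts. Reads carry no molecular identifiers, so both cover counting error only. Depth was 8167960 to 34571822 counts in the 12 libraries used.

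Length and GC come from 1 transcript per gene, preferring APPRIS principal ones, and paralogs were aligned with Biopython 1.88. Start-site sequences are from RefSeq (GRCm38.p6). Named genes were, among members averaging at least 10 CPM, the 4 highest and 4 lowest per kilobase in DMSO, in each total RNA comparison and in the J2, Z22 and IgG ratios of DMSO. The stalk and 5S particle genes, *Rps6*, *Rpsa*, *Rpl41*, the paralogs with their parents and at most 4 genes of each other list were named besides. *Rpl24*, *Rps10* and further genes were named after their values were seen. Members, lists and measures were chosen with earlier results of these data known. Alternatives were edgeR 4.0.16 TMM and DESeq2 1.42.0 size factors, totals without the 20 most abundant genes or over protein-coding genes, other pseudocounts (0.1 and 2 CPM), filters and fold lines, and members with shared exons left out. Some named items are not reported here, though they count in the totals and medians. The calculations were tested on simulated data.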

Additional observations from a re-analysis of the deposited data

How the results depend on the processing

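Each condition had a single library, so no replicate could be left out and no spread between cultures is known. In the paired test over treatments, leaving out each treatment in turn gave 0 to 29 members higher for J2 to total RNA and 0 to 1 for Z22 to total RNA, the highest without DMSO, and 0 for Z22 to J2. With TMM all 3 gave 0, with 51 and 23 members higher in J2 and Z22 at an unadjusted p of 0.05 (6.85% and 6.54% of all genes). Of 152 recomputed medians, 125 stayed within the interval of the value given, 26 moved beyond it and 1 changed sign. Both total RNA medians stayed within their intervals under every alternative run. The moved values came from the scaling, which also moves the median of all genes, and the distance from that median stayed within the interval in 154 of 171 recomputations. Of the 17 others, 13 came from using no filter. The distance was then 0.77 in IgG to total RNA of DMSO, against 1.19, and -1.71 in Z22 to IgG with DMSO, against -0.96.

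With TMM factors the median ratio to total RNA was 0.56 (J2, DMSO), 0.92 (J2, 5-Aza-CdR), -0.0037 (Z22, DMSO), 1.15 (IgG, DMSO) and 1.77 (IgG, 5-Aza-CdR). The ratio to IgG was -0.82 (J2, 5-Aza-CdR), -1.32 (J2, combination), -1.19 (Z22, DMSO) and -1.23 (Z22, 5-Aza-CdR). With DESeq2 size factors the ratio to total RNA was 0.64, 0.83 and 1.04 (J2 with DMSO, ADAR1i-124 and 5-Aza-CdR), 0.20 and 0.72 (Z22 with DMSO, where the sign turned, and 5-Aza-CdR), and 1.21 and 1.85 (IgG to DMSO and to 5-Aza-CdR). The ratio to IgG was -1.28 (J2, combination), -1.01 (Z22, DMSO) and -1.16 (Z22, 5-Aza-CdR). With totals that leave out the 20 most abundant genes it was 0.70 and 1.01 (J2 to total RNA, DMSO and 5-Aza-CdR), -0.20 and 0.71 (Z22), 1.09 and 1.65 (IgG), -0.60 (J2 to IgG, 5-Aza-CdR) and -1.37 (Z22 to IgG, DMSO). The share of counts in total RNA of DMSO, ADAR1i-124 and 5-Aza-CdR was 3.54%, 3.17% and 2.30% without those 20 genes, 3.44%, 3.07% and 2.28% of protein-coding counts, and 3.26%, 2.84% and 2.09% without members that share exons.

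Of 304 recomputed counts past 2-fold, 43 differed by over 1.5 times. Shares of all genes, which moved as well, stand in brackets. Most stand beside their results. In Z22 with DMSO, TMM and totals without the 20 genes gave 13 and 11 members higher (20.7% and 16.9%) and 17 and 24 lower (30% and 35.7%), with 2 (6.61%) and 40 (54.6%) as given. In Z22 with 5-Aza-CdR, DESeq2 and totals without the 20 genes both gave 26 higher (9.84% and 10.6%), with 15 (7.01%) as given. With a line at 1.5-fold, 53 of 80 members (66.2%, all genes 19.5%) were lower with 5-Aza-CdR in total RNA. At 4-fold 1 was higher with ADAR1i-124 (1.23%, all genes 1.88%) and 1 lower with 5-Aza-CdR (1.25%, all genes 1.76%). The cause of these moves was not tested.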
